A study of Homo sapiens with 4 samples.

Results

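The Wnt ligands, Frizzled receptors and core effectors account for 48 of the 16376 genes in the deposited expression table, and their levels were compared between LASCPC-01 cells treated with ketotifen and cells treated with PBS. The 48 genes were taken by symbol, and the set was chosen with earlier results of these data known. It held every WNT, FZD and DKK gene of the table, the co-receptors LRP5 and LRP6, and the Dishevelled genes DVL1, DVL2 and DVL3. The destruction complex genes AXIN1, AXIN2, APC and GSK3B, CTNNB1, and the DNA-binding partners LEF1, TCF7, TCF7L1 and TCF7L2 were also taken. The ubiquitin ligases RNF43 and ZNRF3 completed the set, with PORCN and WLS, which act on the ligands before release. The line stands for neuroendocrine prostate cancer. It was derived from benign human prostate epithelial cells that had been given N-Myc and an active form of AKT1, so both groups carry these drivers and come from 1 line. Ketotifen is an H1 antihistamine that also stabilises mast cells, and the question named in the series is its use against this cancer. Polyadenylated RNA was sequenced in 4 libraries, 2 of wild-type LASCPC-01 cells given PBS and 2 of the same cells given ketotifen, all labelled day 3. The ketotifen dose is not given in the sources used here. The libraries of each group are called A and B after the letters of the table's columns.

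Wnt proteins are secreted ligands. PORCN attaches a lipid to them in the endoplasmic reticulum and WLS carries them to the cell surface, where they bind a Frizzled receptor together with LRP5 or LRP6. Without ligand, the destruction complex of AXIN, APC and GSK3B marks β-catenin, the product of CTNNB1, for degradation. With ligand, Dishevelled is recruited to the receptor, the complex is inhibited, and β-catenin accumulates and acts in the nucleus with LEF1 and the TCF proteins. AXIN2, RNF43, ZNRF3 and LEF1 are themselves known targets of β-catenin, and the first 3 of them damp the pathway. In prostate cancer, Wnt signalling has been studied for its links to treatment resistance and lineage change.

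The line's identity was checked against marker lists. Of 12 neuroendocrine markers, 5 had a mean of at least 1 FPKM (fragments scaled by gene length and by the size of the library), among them UCHL1, NCAM1, INSM1 and ENO2. The classical granule and vesicle markers CHGA, CHGB and SYP stayed under 1 FPKM in all 4 libraries. The summed level of the neuroendocrine list ran from 671.6 to 694.7 FPKM with PBS and from 706.6 to 717.7 FPKM with ketotifen. Its members differed in direction. UCHL1, which makes up most of the sum, was at 446 ± 16.4 FPKM with PBS and 489 ± 2.42 with ketotifen (adjusted p = 0.226 in limma and 0.104 in voom). NCAM1 was lower with ketotifen in the test on reads, at 51.6 ± 0.620 and 44.2 ± 0.355 FPKM (adjusted p = 0.107 in limma and 0.0107 in voom), and ENO2 was at 2.93 ± 0.240 and 1.83 ± 0.329 FPKM (0.102 and 0.0711). Their part in the Wnt results was not tested. Luminal markers summed to between 786.7 and 886.9 FPKM, nearly all of it from the keratin genes KRT8 and KRT18. Summed basal and endothelial markers stayed at or under 0.127 and 0.220 FPKM. Fibroblast, immune and mast cell lists summed to between 2.17 and 4.02 FPKM and rested on COL1A1, CD68 and KIT in that order, and TPSAB1, which encodes the mast cell protease tryptase, was at 0 in 3 libraries and at 0.0508 FPKM in ketotifen B. The read numbers recovered from the values summed to between 30626953 and 34170311 per library. PBS B stood farthest from the ketotifen libraries (r = 0.993 and 0.994 over log2 values, across genes), while PBS A had r = 0.996 with each of them and with PBS B.

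Of the 48 genes, 22 had a mean of at least 1 FPKM, and 1 of these, the ligand WNT10A, differed between the groups past the threshold. WNT10A fell to about 0.317 of its PBS level. None of the 22 rose past it, and the other 21 did not pass in either direction. The test was limma on log2(FPKM + 1), with Benjamini-Hochberg adjustment over all tested genes and a threshold of 0.05. It called 0.123% of all 10586 tested genes (12 lower, or 0.113%, and 1 higher, or 0.00945%), against 4.55% of the Wnt genes, a share made by 1 gene. At an unadjusted p under 0.05, the Wnt genes gave 7 of 22 (31.8%), with 4 lower and 3 higher, and all genes gave 20.4%. The median change over the 22 was -0.05 on that scale and that over all tested genes -0.02, both near 0. The groups did not overlap in 11 of the 22 (50%), beside 54.4% of all tested genes. In 8 of these 11 ketotifen was lower (31.2% of all genes) and in 3 it was higher (23.2%).

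The whole read numbers behind the values allowed a second test, limma's voom, on genes with a mean of at least 10 reads per library, which takes in 12 Wnt genes under 1 FPKM. Of 34 Wnt genes tested, it called 3 lower (WNT10A, APC and DVL3) and 1 higher (CTNNB1), or 11.8%, beside 4.83% of all 12763 genes (2.45% lower and 2.38% higher). With the minimum of 1 FPKM in place of 10 reads, WNT10A, APC, DVL3 and CTNNB1 were again the calls among 22, beside 7.52% of all genes (3.82% lower and 3.7% higher). The groups did not overlap in 13 of the 34 (38.2%), beside 51.6% of all genes, and in 10 of these ketotifen was lower (30.6% of all genes). The 9 Wnt genes at an unadjusted p under 0.05 made up 26.5%, beside 21.4% of all genes. In bulk RNA, fewer cells of a type and less RNA per cell cannot be told apart, and since no label ties the libraries to separate cultures, the spread behind the p-values may be technical. Without PBS A, limma called 3 Wnt genes lower and 2 higher, and 1936 genes in all, where 13 were called with all 4 libraries.

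**Figure D1:**
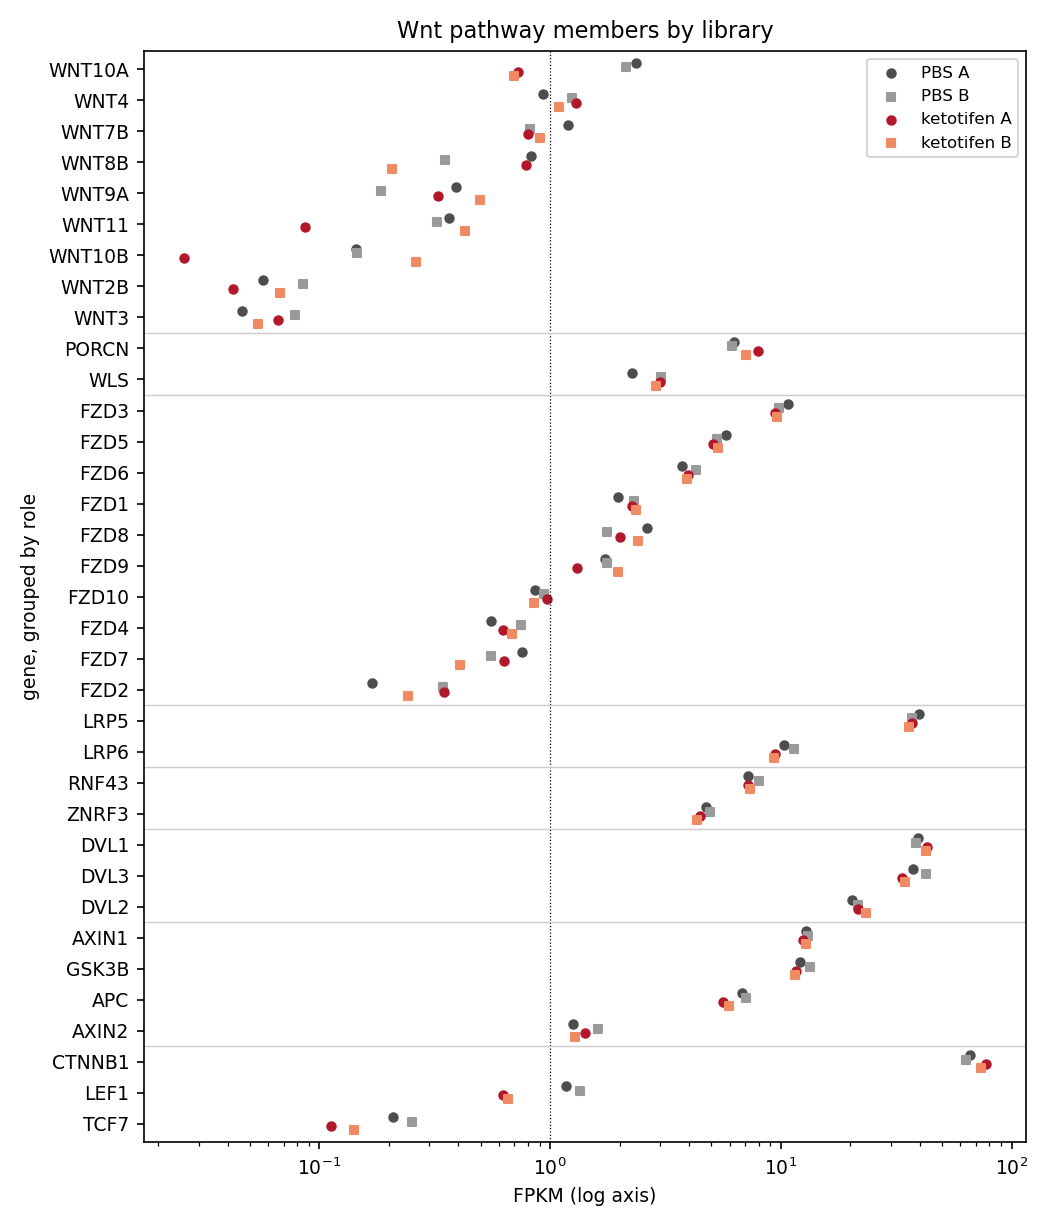
Level of each Wnt gene (rows, grouped by role and ordered by mean within a role) in the 4 libraries, in FPKM on a log axis; each point is 1 library, and the dotted line marks 1 FPKM. The 35 genes above 0.02 FPKM in every library are shown, and the other 13 are not; WNT10A, LEF1 and TCF7 have both ketotifen points clearly left of both PBS points, while most receptors have mixed points.

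Among the 17 ligand genes, levels were low throughout. WNT10A, a ligand known for its part in teeth, hair and skin, was the most abundant of them with PBS. Its level was 2.36 FPKM in PBS A, 2.14 in PBS B, 0.729 in ketotifen A and 0.700 in ketotifen B. Both ketotifen libraries lay far below both PBS libraries, and the libraries of each group lay close together. The group means were 2.25 ± 0.154 and 0.715 ± 0.0205 FPKM (SD, n = 2 libraries each), a PBS level 3.15 times that with ketotifen. These values rest on 174 and 167 reads with PBS and on 60 and 53 with ketotifen. On the log2(FPKM + 1) scale the change was -0.92 ± 0.09 (SE), with a 95% interval from -1.13 to -0.71 (limma adjusted p = 0.0267). On the reads it was -1.64, with an interval from -2.26 to -1.02 (voom adjusted p = 0.00519). The added 1 in the first scale makes the fall of so low a gene look smaller. The limma call was lost with median-ratio scaling (adjusted p = 0.0573), with quantile normalization (0.0576) and with no filter on low genes (0.318), but not on leaving out any 1 library.

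WNT10A lies on chromosome 2 at 218874116 to 218893928 (RefSeq, GRCh38.p14), and its first 118 bases overlap the end of its neighbour WNT6 (218859805 to 218874233). WNT6 itself had 4, 0, 4 and 1 reads in PBS A, PBS B, ketotifen A and ketotifen B, or 9 in all. WNT10A made up 36.6% and 39.5% of the summed FPKM of all ligand genes in PBS A and PBS B, and 17.1% and 16.2% in ketotifen A and ketotifen B. That sum was 5.94 ± 0.722 FPKM with PBS and 4.29 ± 0.0403 with ketotifen. Without WNT10A it was 3.68 ± 0.568 and 3.58 ± 0.0607 FPKM, a difference smaller than the spread between the PBS libraries.

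No other ligand gene passed either test. WNT4, a ligand of kidney and reproductive tract development, was at 0.932 and 1.24 FPKM with PBS and at 1.30 and 1.10 with ketotifen, and the groups overlapped (limma change 0.08, interval -0.17 to 0.33, adjusted p = 0.717). WNT7B, a ligand of lung and bone development, was at 1.20 and 0.816 FPKM with PBS and at 0.805 and 0.904 with ketotifen. These groups overlap as well, so with PBS WNT10A stood above both ligands in each library, and with ketotifen it stood below both. For WNT8B, the libraries within a group differed more than the groups did, at 0.823 and 0.349 FPKM with PBS and 0.788 and 0.207 with ketotifen. WNT9A was at 0.391 and 0.185 FPKM with PBS and at 0.327 and 0.495 with ketotifen. WNT11, best known for planar polarity signalling, was at 0.365 and 0.322 FPKM with PBS, and at 0.0871 in ketotifen A but 0.426 in ketotifen B. WNT10B, the closest relative of WNT10A, showed the same split, at 0.145 and 0.146 FPKM with PBS, 0.0259 in ketotifen A (3 reads) and 0.263 in ketotifen B (28 reads). WNT2B was between 0.0423 and 0.0845 FPKM in the 4 libraries. The voom intervals of the changes ran from -0.75 to 0.33 for WNT7B, from -1.56 to 0.85 for WNT8B, from -2.15 to 0.48 for WNT11 and from -2.48 to 0.91 for WNT10B. Those of WNT11 and WNT10B, whose ketotifen libraries split, include the change of WNT10A, and those of WNT7B and WNT8B do not. The interval of WNT8B still overlaps that of WNT10A (-2.26 to -1.02), and differences between ligands were not tested. The remaining 9 ligand genes had at most 28 reads over all libraries together. WNT3 was the highest of them, with a mean of 0.0614 FPKM, WNT5A had 14 reads in all, and WNT1 was listed at 0 in every library.

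Ligand export genes were higher in level than the ligands. PORCN, the acyltransferase that lipidates Wnt proteins, was at 6.29 and 6.12 FPKM with PBS and at 7.99 and 7.03 with ketotifen. Both ketotifen libraries lay above both PBS libraries, 1.21 times higher in the means, but the change did not pass (limma 0.24, interval 0.06 to 0.42, adjusted p = 0.167, and voom adjusted p = 0.200). It passed in limma only without PBS A, where PBS B alone stood for PBS and far more of all genes passed. WLS, the carrier that brings lipidated Wnt proteins to the surface, was at 2.27 and 3.02 FPKM with PBS and at 2.98 and 2.87 with ketotifen, with overlapping groups.

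All 10 Frizzled receptor genes had reads in every library, and 6 of them had a mean of at least 1 FPKM. None passed limma or voom, where 0.123% and 4.83% of all genes did. At an unadjusted p under 0.05 were 0 with either, beside 20.4% and 21.4% of all genes. FZD3, a receptor prominent in axon guidance, had the highest level per length, at 10.7 and 9.79 FPKM with PBS and 9.45 and 9.65 with ketotifen. FZD5 followed at 5.77 and 5.30 FPKM with PBS and 5.06 and 5.32 with ketotifen. FZD6, linked to planar polarity, came next at 3.72 and 4.30 FPKM with PBS and 3.95 and 3.92 with ketotifen. From FZD3 to FZD6 each step in this order was wider than the spread over the 4 libraries. The next 3 could not be ordered beyond their spread: FZD1 was at 1.96 and 2.31 FPKM with PBS and 2.26 and 2.37 with ketotifen. FZD8 was at 2.62 and 1.76 FPKM with PBS and at 2.01 and 2.41 with ketotifen. FZD9 was at 1.73 and 1.76 FPKM with PBS and at 1.31 and 1.97 with ketotifen. In all 3 the ketotifen libraries overlapped the PBS libraries. FZD10 (0.850 to 0.973 FPKM over the libraries) lay below these and above FZD4 (0.556 to 0.748), whose range FZD7 (0.407 to 0.756) covered, and FZD2 (0.169 to 0.346) was the lowest. The summed Frizzled level was 28.3 ± 0.750 FPKM with PBS and 27.2 ± 0.848 with ketotifen. The intervals of the 6 changes in limma lay between -0.35 and 0.33 on the log2(FPKM + 1) scale, so none of them allows a change as large as that of WNT10A. The order depends on the gene lengths the authors divided by: the values of FZD3 imply 4245 bases, where its longest GENCODE transcript has 13740, and FZD5 had more reads than FZD3 in all 4 libraries (1757 against 1495 in PBS A).

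The co-receptors and the ligases that remove receptors did not pass either. LRP5 was at 39.6 and 37.0 FPKM with PBS and at 36.9 and 35.9 with ketotifen. LRP6, which together with LRP5 passes the signal from Frizzled to the destruction complex, was at 10.3 and 11.4 FPKM with PBS and at 9.45 and 9.35 with ketotifen. Its groups did not overlap, but its change of -0.19 (interval -0.35 to -0.03) did not pass, with adjusted p = 0.200 in limma and 0.0683 in voom. Without PBS A, LRP6 passed in both tests, but PBS B alone then stood for PBS and far more of all genes passed. It also passed in voom with a replicate block by column letter, added after seeing the data. RNF43 and ZNRF3 encode ubiquitin ligases that take Frizzled receptors off the cell surface. RNF43 was at 7.17 and 8.06 FPKM with PBS and at 7.23 and 7.36 with ketotifen. ZNRF3 was at 4.72 and 4.94 FPKM with PBS and at 4.47 and 4.32 with ketotifen, a change of -0.11 (interval -0.28 to 0.05, limma adjusted p = 0.407). The secreted inhibitors of the co-receptors were hardly detected: DKK1 and DKK2 each had 2 reads in all. DKK3, a divergent family member, had 6 reads in each PBS library and 2 and 1 in ketotifen A and ketotifen B, too few to test.

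Of the 3 Dishevelled genes, whose proteins relay the signal from Frizzled, DVL3 lay lower and DVL1 higher with ketotifen, and the change in DVL3 passed only in the test on reads. DVL3 was at 37.3 and 42.4 FPKM with PBS and at 33.6 and 34.5 with ketotifen. Its change was -0.22 in limma (interval -0.38 to -0.06, adjusted p = 0.159) and -0.23 in voom (adjusted p = 0.0348). DVL1 was at 39.4 and 38.3 FPKM with PBS and at 42.9 and 42.5 with ketotifen, a limma change of 0.13 (interval 0.01 to 0.25), with adjusted p = 0.213 in limma and 0.166 in voom. DVL2 was at 20.3 and 21.7 FPKM with PBS and at 21.6 and 23.4 with ketotifen, and its groups overlapped. The ratio of DVL1 to DVL3 was 1.06 and 0.904 in PBS A and PBS B and 1.28 and 1.23 in ketotifen A and ketotifen B. This ratio restates the levels of a higher and a lower gene and was not tested. The call for DVL3 in voom was lost without PBS B, ketotifen A or ketotifen B, and with median-ratio scaling (voom adjusted p = 0.0700). In limma it was made without PBS A, where PBS B alone stood for PBS and far more of all genes passed. A replicate block by column letter, added after seeing the data, also gave the limma call (adjusted p = 0.0491). Far more of all genes passed there too.

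In the destruction complex, APC was lower with ketotifen in the test on reads and its partners did not pass. APC, the scaffold that is lost in most colorectal cancers, was at 6.77 and 7.05 FPKM with PBS and at 5.64 and 5.98 with ketotifen, 15.9% lower in the means. The groups did not overlap, and the change was -0.22 in limma (interval -0.38 to -0.06, adjusted p = 0.163) and -0.25 in voom (interval -0.39 to -0.11, adjusted p = 0.0341). GSK3B, the kinase that marks β-catenin, was at 12.1 and 13.4 FPKM with PBS and at 11.6 and 11.5 with ketotifen, a change of -0.13 (limma adjusted p = 0.331). AXIN1, the rate-limiting scaffold, was at 12.8 and 13.1 FPKM with PBS and at 12.4 and 12.8 with ketotifen, so the groups overlapped (interval -0.17 to 0.11). The voom call for APC was lost without PBS B (adjusted p = 0.0830), ketotifen A (0.374) or ketotifen B (0.0957), and with median-ratio scaling (0.0628).

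CTNNB1, the gene of β-catenin, was the most abundant of the 48 and was higher with ketotifen in the test on reads. It was at 66.0 and 63.4 FPKM with PBS and at 77.6 and 73.6 with ketotifen, and both ketotifen libraries lay above both PBS libraries. The means of 64.7 ± 1.79 and 75.6 ± 2.82 FPKM differ by 16.8%. The change was 0.22 in limma (interval 0.09 to 0.35, adjusted p = 0.115) and 0.22 in voom (interval 0.12 to 0.33, adjusted p = 0.0167), on 38649 reads in all. The ratio of CTNNB1 to APC was 9.75 and 8.99 in PBS A and PBS B and 13.8 and 12.3 in ketotifen A and ketotifen B. This ratio restates the levels of a higher and a lower gene and was not tested. Protein was not measured, and β-catenin is controlled mainly by degradation. The voom call was lost without ketotifen A or ketotifen B. In limma CTNNB1 was called without PBS A, where PBS B alone stood for PBS and far more of all genes passed. A replicate block by column letter, added after seeing the data, also gave the limma call (adjusted p = 0.0320). Far more of all genes passed there too.

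The nuclear partners of β-catenin were scarce and of the 4 only LEF1 and TCF7 had enough reads for a test. LEF1 was at 1.18 and 1.34 FPKM with PBS and at 0.626 and 0.659 with ketotifen. The ketotifen libraries lay at about the same level, below both PBS libraries, and the PBS mean was 1.96 times the ketotifen mean. Over both groups the mean was 0.952 FPKM, just under the minimum for limma. On the reads (106 and 128 with PBS, 63 and 61 with ketotifen) the change was -0.97, with an interval from -1.61 to -0.33, and it did not pass (voom adjusted p = 0.0723). TCF7, which like LEF1 was first known from T cells, was at 0.208 and 0.251 FPKM with PBS and at 0.112 and 0.141 with ketotifen. It had 98 and 125 reads with PBS and 59 and 68 with ketotifen, a change of -0.87 (interval -1.52 to -0.22, voom adjusted p = 0.110). The FPKM of TCF7 implies a gene length of 14301 bases where the longest GENCODE transcript has 5340, so its level per length is low by comparison with its reads, which were close in number to those of LEF1. TCF7L1 and TCF7L2, the TCF genes that prevail in many epithelia, had 7 and 24 reads in all. Of the 24 reads of TCF7L2, 15 came from ketotifen A. Both LEF1 and TCF7 passed in voom without PBS A, and neither did without any other library. LEF1 also passed in voom with a replicate block by column letter, added after seeing the data, and TCF7 did not. Without PBS A, PBS B alone stood for PBS and far more of all genes passed. LEF1 lies on chromosome 4 at 108047548 to 108168932 (RefSeq, GRCh38.p14) and shares 1408 bases with the antisense gene LEF1-AS1 (108167525 to 108176430). The sources used here do not say whether strand entered the counting, so the pair's reads in that stretch cannot be told apart.

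AXIN2, a widely used target gene of β-catenin, did not pass in either test. It was at 1.26 and 1.62 FPKM with PBS and at 1.42 and 1.28 with ketotifen, so the groups overlapped. Its change was -0.05 in limma (interval -0.29 to 0.19, adjusted p = 0.807) and -0.09 in voom (interval -0.46 to 0.29). The ratio of LEF1 to AXIN2 was 0.933 and 0.832 in PBS A and PBS B and 0.442 and 0.516 in ketotifen A and ketotifen B. This ratio restates the lower level of LEF1 and was not tested.

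**Figure D2:**
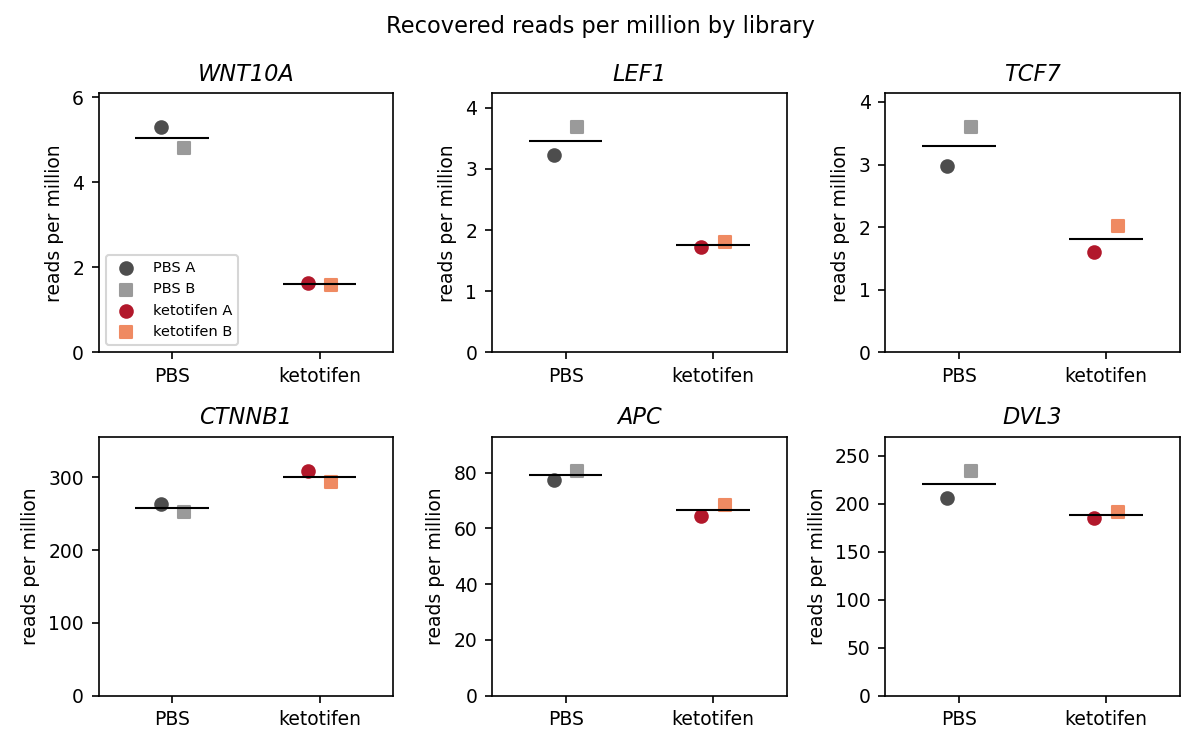
Recovered reads of WNT10A, LEF1, TCF7, CTNNB1, APC and DVL3, scaled to the total of each library (RPM), with each point 1 library and each line the mean of a group of 2; every axis starts at 0. WNT10A is at 5.293 and 4.805 RPM with PBS and at 1.64 and 1.57 with ketotifen, and LEF1 and TCF7 show gaps of the same direction, while the gaps of CTNNB1, APC and DVL3 are small beside their levels.

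**Figure D3:**
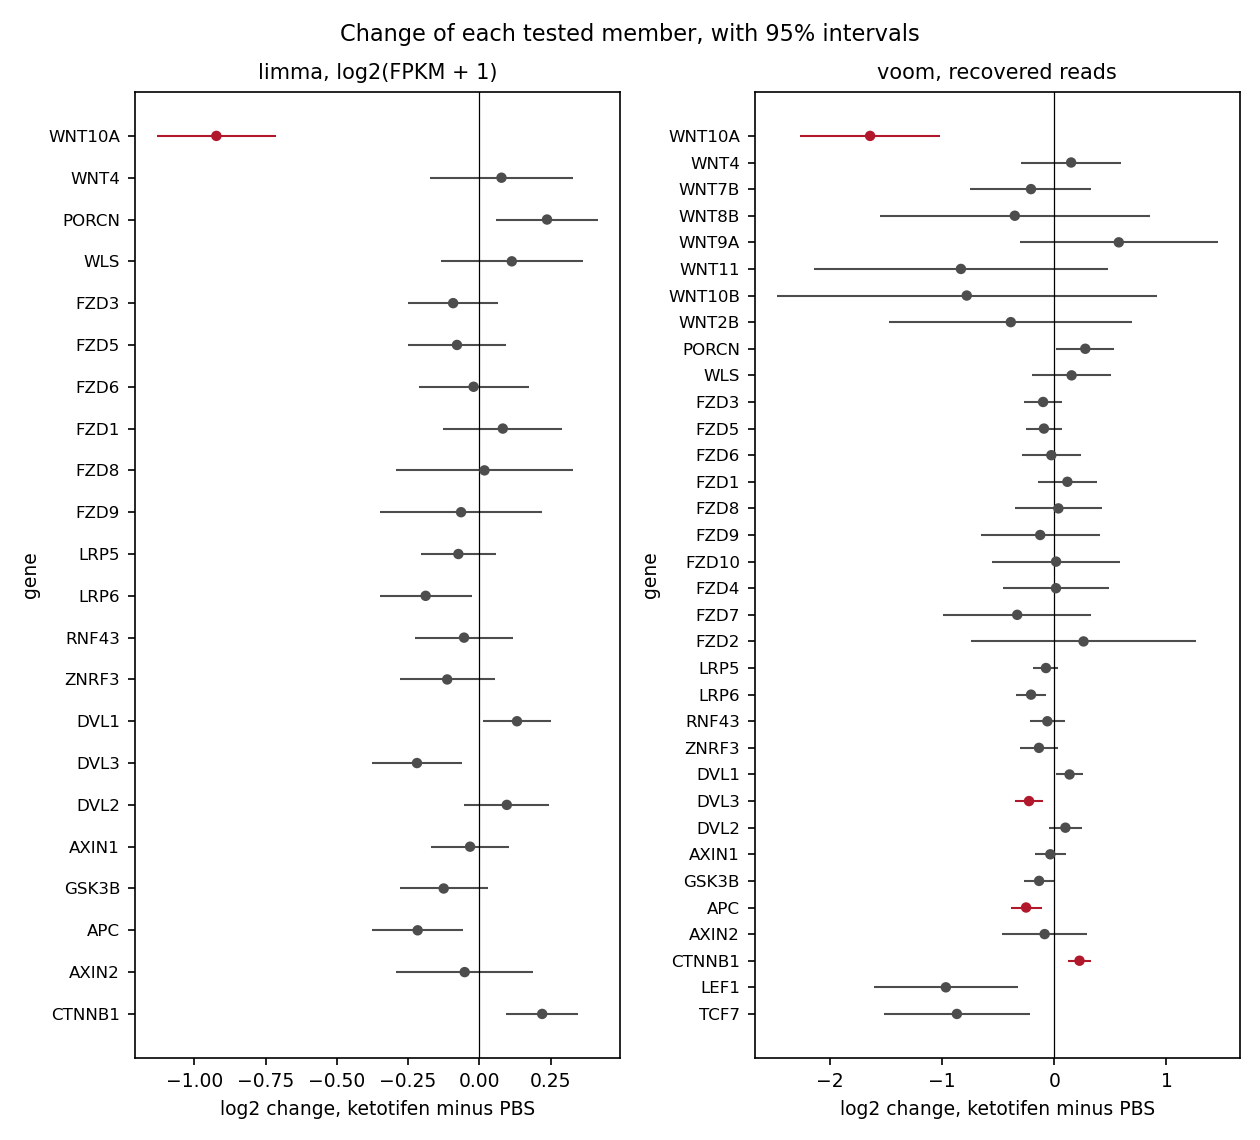
Change of each tested Wnt gene, ketotifen minus PBS, with its 95% interval, from limma on log2(FPKM + 1) for 22 genes (left) and from voom on recovered reads for 34 genes (right); genes past the threshold are in red. WNT10A stands apart in both panels, and the interval of CTNNB1 lies above 0 and those of APC and DVL3 below 0 in both, with the calls made only on the right.

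Promoter sequences were at hand for 35 of the 48 genes, as 45 windows of the 250 bases before a transcription start (RefSeq, GRCh38.p14). They were searched on both strands for the core TCF/LEF motif, spelled CTTTGAT and CTTTGTT. It was found in 3 of the 45 windows (6.67%), those of TCF7, DKK1 and TCF7L2, beside 6.6% of all 35116 windows. The hypoxia response core, spelled ACGTG and GCGTG, was searched because VEGFA, which low oxygen induces, was among the pathway genes lower with ketotifen, and was found in 18 windows (40%), beside 43.2% of all. Both shares are near those of all genes. The windows of WNT10A, LEF1, CTNNB1 and DVL3 held neither motif, which says only that these letters are not there. The TCF7 window with the TCF/LEF match and an APC window with the hypoxia core on both strands are shown, written 5′ to 3′ with the matches in capitals. Windows with an annotated exon, among them those of WNT10A, LEF1, CTNNB1 and DVL3, were not written out. The other TCF7 window held no TCF/LEF match, and the other APC window held 1 hypoxia core. The windows shown lie at chr5:134123368-134123617 (TCF7, plus strand) and chr5:112737635-112737884 (APC, plus strand). Both lie inside the span of their gene, and neither holds an annotated exon.
TCF7: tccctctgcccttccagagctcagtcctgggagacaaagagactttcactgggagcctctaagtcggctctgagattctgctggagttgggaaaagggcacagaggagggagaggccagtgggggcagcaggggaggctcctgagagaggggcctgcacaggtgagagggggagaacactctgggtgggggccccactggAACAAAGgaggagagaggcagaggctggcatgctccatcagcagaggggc
APC: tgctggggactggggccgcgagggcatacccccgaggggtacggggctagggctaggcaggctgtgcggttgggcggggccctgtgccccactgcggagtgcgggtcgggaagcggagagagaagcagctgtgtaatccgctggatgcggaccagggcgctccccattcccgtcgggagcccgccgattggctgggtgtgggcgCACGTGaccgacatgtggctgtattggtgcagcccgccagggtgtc
In the TCF7 window the capitals are 1 TCF/LEF match on the minus strand. In the APC window they are 1 palindrome, which reads the same on both strands, so its 2 overlapping hypoxia cores are a single stretch. A match of this kind is a description of the letters and shows no binding.

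The wider pathway was read through 9 lists of 159 further genes, of which 152 were in the table and 109 had a mean of at least 1 FPKM. None of the 109 passed in limma, where 0.123% of all genes did, and 16 were at an unadjusted p under 0.05 (14.7%, 14 lower and 2 higher), beside 20.4% of all genes. With ketotifen, 83 of the 109 changes were negative (76.1%, beside 55.7% of all tested genes), and the median was -0.07, beside -0.02 over all tested genes. Of 131 tested by voom, 7 fell and 1 rose (6.11%, beside 4.83% of all genes). Without PBS A more of these genes were called in both tests, as were more of all tested genes. PBS B alone then stood for PBS. The lists were chosen with earlier results of these data known.

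Antagonists outside the cell were low in level: of 16 in the table, 4 had a mean of at least 1 FPKM and 8 a mean of at least 10 reads. None passed in limma, and 2 of the 8 fell in voom (25%, beside 4.83% of all genes). KREMEN1, a receptor that with DKK proteins removes LRP6 from the surface, was at 5.82 and 6.03 FPKM with PBS and at 4.82 and 4.98 with ketotifen. It fell in the test on reads (-0.27, voom adjusted p = 0.0339) but did not pass in limma (adjusted p = 0.150). IGFBP4, a secreted binder of insulin-like growth factors that also binds LRP6 and Frizzled, fell further. It was at 0.842 and 0.979 FPKM with PBS and at 0.198 and 0.161 with ketotifen, on 61, 75, 16 and 12 reads (voom change -2.30, interval -3.35 to -1.25, adjusted p = 0.0137). SOSTDC1 was at 1.26 and 1.92 FPKM with PBS and 1.04 and 1.30 with ketotifen, and KREMEN2 at 1.98 and 2.41 and at 2.08 and 1.57, and both overlapped. Of the R-spondin list, only the receptor LGR4 was above 1 FPKM, at 30.96 and 29.02 FPKM with PBS and at 27.2 and 25.4 with ketotifen (change -0.18, limma adjusted p = 0.175). LGR5, the stem cell marker of the family, chosen after its values were seen, had 13 reads in all.

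Among 7 regulators of ligand export and co-receptor folding, 1 was called by voom (14.3%, beside 4.83% of all genes) and none by limma. SNX3, a sorting protein that returns WLS from endosomes, fell in the test on reads from 86.8 and 97.8 FPKM to 79.3 and 78.7 (-0.22, voom adjusted p = 0.0450, limma adjusted p = 0.148). VPS29 (32.8 ± 1.96 FPKM with PBS, 35.6 ± 0.558 with ketotifen) and TMED2 (95.4 ± 0.508, then 90.7 ± 1.90) did not pass. Among the 11 tested co-receptors and receptor regulators, 9 changes were negative (81.8%, beside 55.7% of all genes). None passed in limma, nor any of 12 in voom. At an unadjusted p under 0.05 were 2 in limma (18.2%, beside 20.4% of all genes) and 3 in voom (25%, beside 21.4%). The atypical receptor kinase RYK was at 27.0 and 30.2 FPKM with PBS and at 24.5 and 25.1 with ketotifen (-0.19, limma adjusted p = 0.174). ROR1, a receptor of WNT5A, was at 7.47 and 7.56 FPKM with PBS and at 6.62 and 6.48 with ketotifen (-0.17, limma adjusted p = 0.200). CAPRIN2 was at 4.83 and 5.52 FPKM, then 4.52 and 4.59.

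Within the cell, none of the genes of β-catenin turnover passed, neither the 23 tested by limma nor the 27 tested by voom. At an unadjusted p under 0.05 were 0 in limma, beside 20.4% of all genes, and 4 in voom (14.8%, beside 21.4%). In limma 16 of their changes were negative (69.6%, beside 55.7% of all genes). CSNK1G3, a kinase of LRP6, was at 9.35 and 10.3 FPKM with PBS and at 8.42 and 8.99 with ketotifen, and its relative CSNK1G2 at 45.9 and 46.4 and at 40.5 and 44.1. NKD2, which binds Dishevelled, was at 2.78 and 2.46 FPKM, then 2.46 and 1.30. In the nucleus, 16 of 20 cofactors had negative changes (80%, beside 55.7% of all genes), and 2 of 21 fell in the test on reads (9.52%, beside 4.83%). The acetyltransferase EP300 fell from 18.6 and 21.3 FPKM to 16.4 and 16.6 (-0.27, voom adjusted p = 0.0178, limma adjusted p = 0.141), and BCL9L, an adaptor of β-catenin, from 17.2 and 19.1 FPKM to 14.9 and 16.1 (-0.23, voom adjusted p = 0.0307, limma adjusted p = 0.167). Its paralog BCL9 was at 6.41 and 6.18 FPKM, then 5.19 and 5.20, and did not pass at 10 reads (voom adjusted p = 0.0576). With a mean of at least 1 FPKM in place of 10 reads, voom called 3 of 20 cofactors lower (15%). Of all genes, 3.82% were called lower there.

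Of the genes often used as β-catenin targets, none passed in limma, and 2 fell and 1 rose in voom (15% of 20 tested, beside 4.83% of all genes). In limma, 9 of 14 changes were negative (64.3%, beside 55.7% of all genes), with a median of -0.02, like that of all genes. In voom, which adds low genes, 14 of 20 were negative (70%, beside 57% of all genes) and the median was -0.11, beside -0.03. At an unadjusted p under 0.05, voom had 8 of the 20 (40%, beside 21.4%), 7 of them lower, and of the 12 whose groups did not overlap (60%, beside 51.6%) ketotifen was lower in 10. VEGFA, an angiogenic factor that is also induced by low oxygen, fell in the test on reads from 38.3 and 38.0 FPKM to 29.97 and 28.12 (-0.39, voom adjusted p = 0.00146, limma adjusted p = 0.0713). SOX9, a transcription factor of prostate and gut progenitors, fell there from 72.6 and 81.8 FPKM to 61.9 and 63.8 (-0.29, voom adjusted p = 0.00722, limma adjusted p = 0.104). BIRC5, the mitotic survivin gene, rose there from 44.3 and 40.3 FPKM to 49.6 and 50.9 (0.25, voom adjusted p = 0.0223, limma adjusted p = 0.117). CCND1 was at 75.7 and 78.0 FPKM with PBS and at 78.6 and 79.8 with ketotifen, and NKD1, like AXIN2 a feedback target, at 1.98 and 2.11 and at 1.92 and 1.65. CCND1 and NKD1 were chosen after their values were seen.

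The arms of the pathway that do not run through β-catenin had no call in limma or in voom at a mean of at least 10 reads. In planar cell polarity, 14 of 17 changes were negative (82.4%, beside 55.7% of all genes), led by the actin regulator DAAM1 at 12.7 and 13.4 FPKM with PBS and 11.5 and 10.98 with ketotifen (-0.20, adjusted p = 0.166 in limma and 0.0683 in voom). VANGL1 was at 12.1 and 12.1 FPKM, then 10.9 and 11.4, and the kinase ROCK2 at 4.19 and 4.13, then 3.70 and 3.80. In the Wnt and calcium list, 10 of 13 changes were negative (76.9%). NFATC3 was at 25.7 and 26.0 FPKM, then 23.5 and 22.1, NFATC1 at 12.3 and 11.3, then 10.3 and 9.96, and PRKCA at 9.78 and 10.2, then 8.93 and 8.93. Their voom adjusted p-values were 0.0615, 0.0580 and 0.108. With a mean of at least 1 FPKM in place of 10 reads, voom called 2 of 13 genes of this list lower (15.4%). Of all genes, 3.82% were called lower there. At an unadjusted p under 0.05, limma had 1 of 17 genes in the polarity list (5.88%) and 2 of 13 in the calcium list (15.4%), beside 20.4% of all genes. Voom had 1 of 21 (4.76%) and 6 of 16 (37.5%), beside 21.4%.

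**Figure D4:**
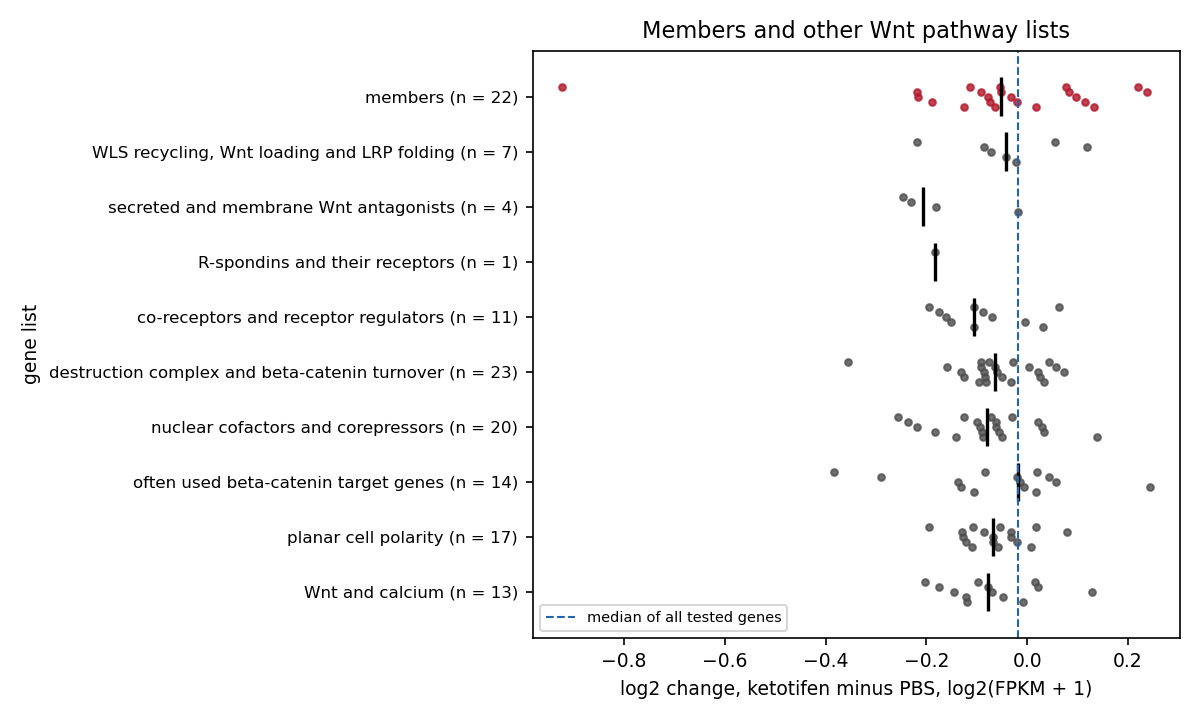
Change of each tested gene, ketotifen minus PBS on the log2(FPKM + 1) scale, for the Wnt core (red) and 9 lists of other pathway genes; each point is 1 gene, black bars are list medians, n is the number of genes tested, and the dashed line is the median of all tested genes (-0.02). Apart from WNT10A at -0.92, the points lie between -0.38 and 0.24, and most list medians lie slightly left of the dashed line.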

How the data were processed

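The authors deposited 1 table of FPKM values per gene and library. Per the submitters' processing notes, fastp, HISAT2, HTSeq and GRCh38 were used. For the annotation, gene lengths and strand setting the answer is not given in the sources used here. Per the labels' protocols, libraries came from a stranded mRNA kit and were sequenced as paired ends. The columns were matched to the PBS and ketotifen groups by name, 2 libraries each.

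The table was fitted on log2(FPKM + 1) with the trend option of limma 3.58.1 under R 4.3.3. The test covered the 10586 genes whose mean reached 1 FPKM and was two-sided, Benjamini-Hochberg adjusted over all of them, called under 0.05. Fold changes on this scale understate those of low genes. In each gene the deposited FPKM values are multiples of the value of 1 read. With Python 3.11.15, whole reads were recovered for 99.8% of the tested genes and for 0 of 500 decoys. The decoys were tested genes whose values were each multiplied by a random factor. The scaling totals were fixed through 168 genes whose implied length equalled that of their longest GENCODE transcript. limma's voom was run on these reads, with a mean of at least 10 reads chosen after seeing the data. Both fits were tested on simulated data. Other pseudocounts, filters and scalings and leaving out each library were alternatives.

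The Wnt genes and gene lists were chosen with earlier results of these data known. The text names every Wnt gene with a mean of at least 1 FPKM or at least 50 reads in all, and from each other list the 3 smallest limma p-values and every called gene. Some marker genes are not reported here. Scarcer Wnt genes are summarised, with a few named. Intervals are 95% intervals of the fits.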

Additional observations from a re-analysis of the deposited data

How the results depend on the processing

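The columns' letters are not tied to the labels' replicate numbers, and nothing says that they pair libraries. The A minus B differences of the groups correlated at 0.102 across genes. A replicate block by letter, added after seeing the data, left 1 residual degree of freedom and gave in limma 2 Wnt genes lower, 1 higher, 637 of all genes and 5 other pathway genes, and in voom 5 lower, 1 higher, 1416 and 17. Under the block WNT10A, DVL3 and CTNNB1 passed in both tests, and APC, LRP6 and LEF1 passed in voom only. Where a library was left out, the lone library of its group was assumed to vary like the other group. Over 346 pairs of a Wnt gene and another setting, 305 kept direction and side of the threshold, 17 passed newly, 13 no longer passed and 11 changed sign. In limma, the count of Wnt genes called lower was 1 and became 0 without a filter, with median-ratio scaling and with quantile normalization. It was also 0 at a minimum of 5 FPKM, where WNT10A was not tested, and 3 in voom with either filter. Leaving out 1 library gave 1 to 3 lower, 0 to 2 higher, 10 to 1936 of all genes, and 0 to 15 of the other pathway genes. The count called higher was 0 in limma and 1 in voom. All genes called numbered 13, and 0 with no filter, 27 at 5 FPKM, 2 with median-ratio scaling, 3 with quantile normalization, 795 in voom at 1 FPKM and 617 at 10 reads. Other pathway genes called numbered 0, and 1 at 5 FPKM, 1 with equal sums, 10 in voom at 1 FPKM and 8 at 10 reads. The median over the Wnt genes, -0.05, was -0.024 with a pseudocount of 5, -0.0060 with no filter, -0.089 with equal sums, -0.019 with quantile normalization and -0.090 in voom at 10 reads, and -0.060 to -0.033 without 1 library. Equal sums shifted the median of all genes to -0.06 and median-ratio scaling to 0.0066.

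In voom at 10 reads, leaving out 1 library gave 1 to 7 Wnt genes lower, 0 to 1 higher, 158 to 2197 of all genes, 2 to 25 other pathway genes and a median of -0.120 to -0.046. Median-ratio scaling gave 1 Wnt gene lower and 5 other pathway genes. Signs changed only in genes that passed in no setting. FZD6 was at 0.0021 with median-ratio scaling and 0.021 with quantile normalization, and FZD8 at -0.017 with equal sums. Without 1 library the ranges were -0.16 to 0.054 for AXIN2, -0.10 to 0.064 for FZD6, -0.18 to 0.21 for FZD8, -0.24 to 0.12 for FZD9, -0.13 to 0.021 for RNF43, -0.035 to 0.26 for WLS and -0.029 to 0.18 for WNT4. The cause of these shifts was not tested. Genes under about 50 reads could not be compared at this depth.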

Other observations

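Low genes of the wider pathway were tested only on reads. MYC was at 0.263 and 0.191 FPKM with PBS and at 0.0663 and 0.0328 with ketotifen, on 85 reads in all (voom change -2.17, adjusted p = 0.0572). CD44, an adhesion receptor often listed as a β-catenin target, was at 0.160 and 0.265 FPKM with PBS and at 0.104 and 0.0755 with ketotifen, on 147 reads (voom change -1.20, adjusted p = 0.160). NOTUM, a secreted enzyme that removes the lipid from Wnt proteins, was at 0.493 and 0.337 FPKM with PBS and at 0.380 and 0.400 with ketotifen, so its groups overlapped. The inhibitor WIF1 was at 0.754 and 0.8004 FPKM with PBS and at 0.772 and 0.554 with ketotifen, and overlapped as well. These 4 genes were chosen after their values were seen, and none passed the test.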
